A study of Mus musculus with 4 samples.

Results

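The smooth muscle contractile genes Acta2, Tagln, Cnn1, Lmod1, Myh11, Myl9, Mylk and Des were followed through the RNA-Seq of sorted cerebral cells of the mouse. They were selected by gene symbol. All 8 were among the 24873 genes of the deposited table, and all 8 had a mean of at least 10 normalized counts over the libraries, as did 20485 genes that were tested.

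The mice of both groups carried a tamoxifen-activated Cre recombinase under the promoter of VE-cadherin, the gene Cdh5, together with floxed Mgp (labelled Cdh5cre;Mgpflox/flox). The control group received no tamoxifen. The tamoxifen group had daily injections of 75 mg/kg over 5 days, begun at 10 weeks. This treatment is meant to delete Mgp in the cells where that promoter is active. Cells for the libraries were sorted on day 9. There were 2 libraries in each group, each from the pooled cells of 3 mice. The controls had neither the drug nor the deletion. Thus an effect of tamoxifen itself and one of the intended loss of Mgp cannot be told apart. The methods describe the sort as CD31+CD45- cells, whereas the labels call them brain tdTomato+ cells. The table marks its columns with the letters C and A. The letter C was taken to stand for control, and A for the arteriovenous malformation that follows tamoxifen, a letter that the labels do not hold.

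Vascular smooth muscle cells contract when filaments of α-smooth muscle actin slide along filaments of smooth muscle myosin. A rise in calcium activates myosin light chain kinase, the kinase phosphorylates the regulatory light chain, and the myosin phosphatase reverses this. Transgelin, calponin and leiomodin bind or build the actin filaments, and desmin links them to the rest of the cell. In the brain these genes mark the smooth muscle of arterioles, while capillary pericytes share only part of the set and endothelial cells make a long, nonmuscle form of the kinase from Mylk. Many contractile genes are switched on by serum response factor (SRF) with its partner myocardin at a DNA element called the CArG box.

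The promoters of Acta2 and Myl9 are shown because, of the 6 contractile genes with a promoter sequence to search, only these held the elements marked below. Each sequence is the 250 bases before the RefSeq start of the gene in GRCm38.p6, read 5′ to 3′ on the strand of the gene. Capitals mark CArG-like elements, here CC and GG around 6 letters of which at least 5 are A or T. The pattern is its own reverse complement, so both strands are searched at once, and no elements overlapped in these sequences. The Acta2 sequence lies at chr19:34255374-34255623 on the minus strand and the Myl9 sequence at chr2:156775214-156775463 on the plus strand.
Acta2: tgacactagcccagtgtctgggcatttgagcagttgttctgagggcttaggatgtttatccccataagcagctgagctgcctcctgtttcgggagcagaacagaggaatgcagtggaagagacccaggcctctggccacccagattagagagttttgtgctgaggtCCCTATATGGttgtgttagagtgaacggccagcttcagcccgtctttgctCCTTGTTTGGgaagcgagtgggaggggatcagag
Myl9: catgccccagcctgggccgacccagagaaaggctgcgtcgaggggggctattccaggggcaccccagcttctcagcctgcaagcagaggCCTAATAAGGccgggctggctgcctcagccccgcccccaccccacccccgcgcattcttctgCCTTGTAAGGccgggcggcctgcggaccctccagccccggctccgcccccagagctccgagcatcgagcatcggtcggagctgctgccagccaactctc
The Acta2 elements begin 84 and 34 bases before the start and those of Myl9 begin 161 and 99 bases before it. The first element of Myl9 has A or T at all 6 inner letters and is a full CArG box, and the other 3 elements have 5. A CArG-like element was present in 8.59% of all 32851 promoter windows of this length, at least 2 of them in 0.67%, and a full CArG box in 1.47%. The windows of Cnn1, Des, Lmod1 and Mylk held no such letters, and the table had no window for Tagln and Myh11. Other starts of these genes, such as that of another form of the kinase from Mylk, and bases outside the windows were not searched.

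The recovered reads on genes came to 37475154 and 41025014 in controls and to 35387438 and 49799321 after tamoxifen. Mgp, the targeted gene, had 1094 and 1352 normalized counts for control and 945 and 909 for tamoxifen (limma with Benjamini-Hochberg, BH, adjusted p = 0.0986), a log2 fold change of -0.39 that was 0.08 after rescaling to equal totals. In these libraries the difference in Mgp did not reach an adjusted p under 0.05, and its direction depended on the scaling. Real-time PCR in the paper, on cerebral endothelial cells of this model, reported a progressive fall of Mgp after tamoxifen. Pecam1, the gene of CD31, had 83681 and 88796 normalized counts for control and 15987 and 8973 for tamoxifen. All 12 endothelial markers were present in every library. Their sum in normalized counts was 1135920 and 1131050 for control and 198421 and 101278 for tamoxifen, and all 12 were lower. In bulk RNA, fewer cells of a type and less RNA per cell cannot be told apart. With 2 libraries a group, an adjusted p leans on a spread estimated over all genes. Fold changes below are on log2(normalized count + 1), and a gene was called at an adjusted p under 0.05 with a log2 fold change over 1 in size.

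Of the 8 contractile genes, Cnn1 and Des were called higher in the tamoxifen libraries, and none was called lower. Over all genes tested, 28.6% were called higher, 16% lower and 44.7% in either direction, so the share of contractile genes called higher, 2 of 8, was close to the background. Acta2, Myh11 and Myl9 were not called and had overlapping groups in normalized counts, although Acta2 did not overlap once corrected for depth and length. Lmod1 lay above both control libraries in both tamoxifen libraries, and Tagln and Mylk lay below them, without being called. Their log2 fold changes had a median of 0.57, against 0.05 over all genes tested, and ran from -1.43 for Tagln to 2.23 for Des. After quantile normalization 1 of the 8 was called higher (Des) and 1 lower (Tagln).

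**Figure D1:**
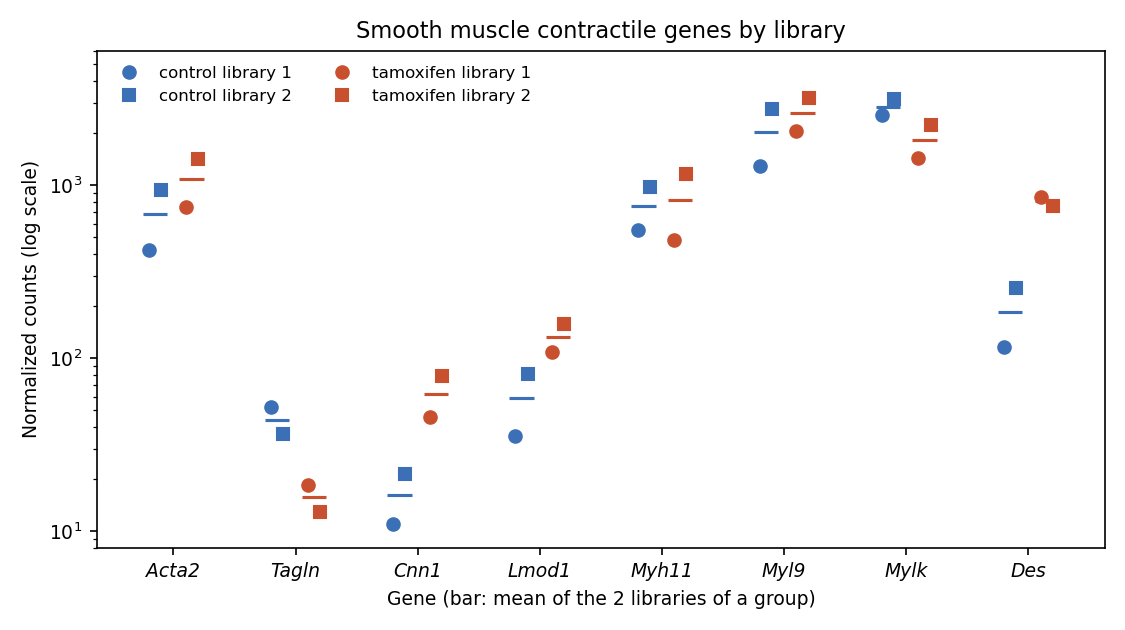
Normalized counts (log axis) of the 8 contractile genes in control libraries (blue) and tamoxifen libraries (red), with circles for library 1, squares for library 2 and bars for the group means. The groups are apart for Cnn1, Lmod1 and Des, with tamoxifen above, and for Tagln and Mylk, with tamoxifen below, and they overlap for Acta2, Myh11 and Myl9.

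Acta2 encodes α-smooth muscle actin (chromosome 19 from 34217737 to 34232990, minus strand, in GRCm39 with GENCODE M39, as for all gene locations below). It had 422 and 939 normalized counts in controls and 745 and 1428 after tamoxifen. The second control library lay above the first tamoxifen library, so the groups overlapped in normalized counts. Corrected for depth and length (RPKM, as below), control had 2.55 and 5.67 and tamoxifen 6.02 and 12.4, without overlap. At equal totals the log2 fold change was 1.18 and was not called (limma, BH-adjusted p = 0.0677). The means of the normalized counts were 680.3 ± 365 and 1087 ± 484 (SD, n = 2). Their log2 fold change was 0.71 (SE 0.42, limma with BH adjustment, adjusted p = 0.178). Without control library 2 the difference was 1.29 and passed (limma, BH-adjusted p = 0.00100), and without control library 1 it was 0.14.

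Tagln encodes transgelin, also called SM22α, an actin-binding protein of the smooth muscle cytoskeleton (chromosome 9 from 45840909 to 45847404, minus strand). Its normalized counts were 52.0 and 36.3 for control and 18.4 and 12.9 for tamoxifen, from 38, 29, 17 and 18 reads. Tamoxifen lay below control without overlap. The log2 fold change of -1.43 (SE 0.56) missed the threshold (limma, BH-adjusted p = 0.0587), and it passed with a pseudocount of 5, with quantile normalization and without the mean-variance trend. Of the exon bases of Tagln, 66.7% overlap a gene on the opposite strand in GENCODE M39, mostly the noncoding gene Gm48529. Gm48529 had 105 and 80.1 normalized counts in controls and 18.4 and 31.6 after tamoxifen. The protein-coding gene Pcsk7 shares 6.02% of the exon bases of Tagln, also on the opposite strand. Pcsk7 had 3478 and 3734 normalized counts in controls and 1375 and 1221 after tamoxifen, a log2 fold change of -1.47. The library kit keeps the strand, but the strand setting of the counting is not given in the sources used here, and reads of a gene and its antisense partner can then be mixed or lost. The part of this overlap in the low level of Tagln was not tested.

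Cnn1, the gene of calponin 1, which binds actin and damps the myosin motor (chromosome 9 from 22010512 to 22020926, plus strand), rose by 1.90 on the log2 scale (SE 0.60, limma with BH adjustment, adjusted p = 0.0274). It went from 10.96 and 21.3 normalized counts in the control libraries to 45.5 and 79.1 in the tamoxifen libraries. All 4 values were low, with 8 and 17 reads for control and 42 and 110 for tamoxifen. The call was lost without control library 1 (log2 fold change 1.45, BH-adjusted p = 0.0730 with limma), without the first (2.29, 0.110) or the second tamoxifen library (1.51, 0.192), and with quantile normalization (0.96, 0.178). The protein-coding gene Elof1 covers 35.1% of its exon bases on the other strand, and Elof1 itself had 1335 ± 139 and 1434 ± 48.4 normalized counts (SD, n = 2).

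Lmod1 encodes leiomodin 1, which starts new actin filaments in smooth muscle (chromosome 1 from 135252509 to 135295907, plus strand). The control libraries had 35.6 and 81.4 and the tamoxifen libraries 108 and 158 normalized counts, with no overlap. Its log2 fold change of 1.26 (SE 0.52) was not called (limma, BH-adjusted p = 0.0702), but it passed after rescaling to equal totals and without control library 2, where it was 1.85. It was 0.68 without control library 1 (limma, BH-adjusted p = 0.283) and 0.16 with quantile normalization (0.804). Over all genes tested, 43.1% had both tamoxifen libraries above both control libraries and 39.2% had both below, so the lack of overlap is in itself a common outcome here.

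**Figure D2:**
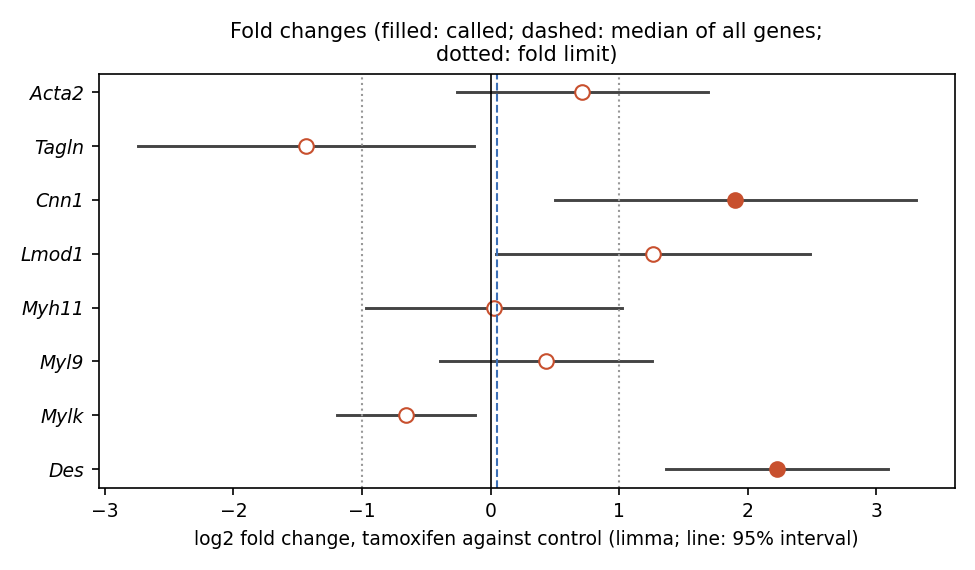
Log2 fold change (x axis, tamoxifen against control, limma on log2(normalized count + 1)) of each contractile gene with its 95% interval. Cnn1 and Des, the filled points, were called, the dashed line marks the median of 0.05 over all genes tested, and the dotted lines mark the fold limit of 1.

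Myh11 encodes the smooth muscle myosin heavy chain, the motor itself (chromosome 16 from 14012399 to 14109236, minus strand). It had 549 and 977 normalized counts in controls and 480.1 and 1162 after tamoxifen, which were the lowest and the highest value of the 4. The log2 fold change was 0.03 (SE 0.43, 95% interval -0.97 to 1.03, limma with BH adjustment, adjusted p = 0.961). An interval of this width does not show that the level stayed the same. Its sign turned with quantile normalization, where the value was -0.42.

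Myl9, the regulatory light chain that the kinase phosphorylates (chromosome 2 from 156617084 to 156623579, plus strand), was among the most abundant of the set. It had 1297 and 2761 normalized counts for control and 2051 and 3189 for tamoxifen, with overlapping groups. Its log2 fold change was 0.43 (SE 0.35, 95% interval -0.39 to 1.26, limma with BH adjustment, adjusted p = 0.320). Without control library 1 it was -0.11 and without control library 2 it was 0.98.

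Mylk encodes myosin light chain kinase (chromosome 16 from 34565580 to 34822790, plus strand). With 2541 and 3143 normalized counts in controls and 1441 and 2226 after tamoxifen, it was the contractile gene with the most normalized counts in the controls, and both tamoxifen libraries lay below both controls. Corrected for depth and length (RPKM, as below), control had 4.39 and 5.43 and tamoxifen 3.34 and 5.52, so that the groups overlapped on that scale. The log2 fold change of -0.66 (SE 0.23) had an adjusted p under 0.05 (limma, BH-adjusted p = 0.0399) but was under the fold limit. It was -0.19 at equal totals (adjusted p = 0.556), and with 1 library left out it ran from -0.34 without tamoxifen library 1 to -0.97 without tamoxifen library 2, with an adjusted p over 0.05 in each of these limma fits but the one without control library 1 (0.0144). The adjusted p was also over 0.05 without the filter (0.0782), with quantile normalization (0.100) and without the mean-variance trend (0.148). By the adjusted p alone, 3 of the 8 genes (Mylk, Cnn1 and Des) passed, against 58.9% of all genes tested. The kinase stood to its substrate in different proportions in the groups, with 1.96 and 1.14 normalized counts of Mylk to 1 of Myl9 for control and 0.703 and 0.698 for tamoxifen. The table gives 1 value a gene, so the long endothelial form and the smooth muscle form of the kinase are counted together.

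Des, the gene of the intermediate filament protein desmin, which pericytes and all muscle types share (chromosome 1 from 75320511 to 75345223, plus strand), had the largest rise of the 8. It went from 116 and 254 normalized counts in the control libraries to 861 and 762 in the tamoxifen libraries. Neither tamoxifen value came near a control value. The log2 fold change was 2.23 (SE 0.37, 95% interval 1.37 to 3.09, limma with BH adjustment, adjusted p = 0.00144). It stayed between 1.45 and 2.79 in the alternatives run, and the call was lost only without tamoxifen library 1 (BH-adjusted p = 0.123 with limma) or without tamoxifen library 2 (BH-adjusted p = 0.114 with limma).

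On a scale that corrects for gene length and depth, RPKM over merged exons with depth taken as the reads on genes, Myl9 stood first with 17.2 on average for control and 31.1 for tamoxifen. In the controls Mylk (4.91), Acta2 (4.11) and Myh11 (1.96) came next, followed by Des (0.701), Tagln (0.421), Lmod1 (0.279) and Cnn1 (0.115). Within the control group Mylk had 4.39 and 5.43 and Acta2 2.55 and 5.67 on this scale, so the order of these neighbours was not set apart from their spread. In the tamoxifen libraries the order was Myl9, Acta2 (9.19), Mylk (4.43), Des (4.25), Myh11 (2.96), Lmod1 (0.886), Cnn1 (0.621) and Tagln (0.206). Des with 4.36 and 4.14 and Mylk with 3.34 and 5.52 could not be told apart there, whereas in the controls Des was below Mylk in both libraries. Tagln stood far below Acta2 in every library, with 8.11 and 25.9 normalized counts of Acta2 to 1 of Tagln in the controls and 40.4 and 110 in the tamoxifen libraries. These are ratios of counts, not of length-corrected levels.

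In normalized counts, the libraries of 1 group differed by more than the group means did for Acta2, Myh11 and Myl9. For Acta2 this depended on the scaling. Its log2 fold change was 0.71 and became 1.18 at equal totals, beside a log2 difference of 1.15 between the control libraries in normalized counts. Acta2 was 2.23-fold higher in control library 2 than in control library 1, and 1.92-fold higher in tamoxifen library 2 than in tamoxifen library 1. Higher values in library 2 were found for 7 of the 8 genes in the control group and for 6 of the 8 in the tamoxifen group, against 54.5% and 42% of all genes tested. The same 6 genes, namely Acta2, Cnn1, Lmod1, Myh11, Myl9 and Mylk, were higher in library 2 of both groups, as were 22.4% of all genes tested. Of the other two, Tagln was lower in library 2 of both groups, at 0.697-fold and 0.702-fold, and Des was 2.18-fold in the control group and 0.886-fold in the tamoxifen group.

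**Figure D3:**
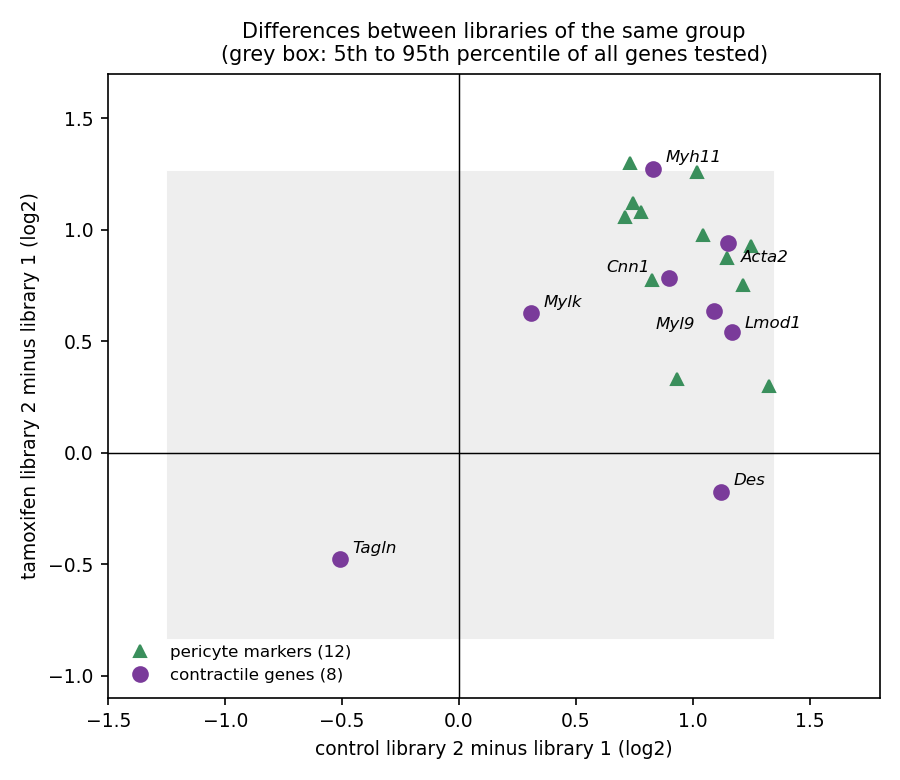
Log2 difference between library 2 and library 1 within the control group (x axis) and within the tamoxifen group (y axis) for the contractile genes and pericyte markers. Acta2, Cnn1, Lmod1, Myh11, Myl9 and Mylk lie in the upper right with all 12 pericyte markers, Des is below 0 for tamoxifen alone, and Tagln is below 0 for both.

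Pericyte markers moved with most contractile genes between libraries of the same group, but this was not particular to them. The astrocyte markers Aqp4, Gfap, Slc1a2, Slc1a3 and Aldh1l1 were also higher in library 2 of both groups, while Gja1 was lower in control library 2. Of the neuron markers, Snap25, Syt1, Slc17a7 and Tubb3 were higher in library 2 of both groups, while Rbfox3 and Gad1 were lower in control library 2. All 12 pericyte markers were higher in library 2 of both groups, with a median log2 difference of 0.98 in the control group and 0.95 in the tamoxifen group, beside 0.99 and 0.63 for the contractile genes and 0.05 and -0.08 for all genes tested. The summed level of the 12 pericyte markers was 38135 and 71014 normalized counts in controls and 54641 and 103808 after tamoxifen. The defining markers Pdgfrb, Rgs5 and Kcnj8 were present in every library and not called. Of the 12, 4 (Abcc9, Notch3, Anpep and Ndufa4l2) were called higher, against 28.6% of all genes tested. The part of pericytes or of other cells in the differences of the contractile genes was not tested.

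Set against the pericyte sum, Acta2 and Myl9 varied less than the other contractile genes. Acta2 stood at 1.11 and 1.32 normalized counts per 100 of the pericyte sum for control and at 1.363 and 1.376 for tamoxifen. Myl9 stood at 3.40 and 3.89, then 3.75 and 3.07. Des, in contrast, went from 0.305 and 0.358 to 1.57 and 0.734, and Cnn1 from 0.0287 and 0.0300 to 0.0833 and 0.0762. Lmod1 went from 0.0934 and 0.115 to 0.198 and 0.152. Mylk went the other way, from 6.66 and 4.43 to 2.64 and 2.14, as did Tagln from 0.136 and 0.0511 to 0.0337 and 0.0125. Myh11 stood at 1.44 and 1.38, then 0.879 and 1.12. These proportions are given as values without a test.

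The make-up of the contractile sum differed between the groups although its size did not stand apart. The 8 genes summed to 5024 and 8213 normalized counts in controls and to 5750 and 9018 after tamoxifen. Mylk made up 50.6% and 38.3% of this sum in controls but 25.1% and 24.7% after tamoxifen. The share of Des was 2.32% and 3.09%, then 15.0% and 8.45%, and that of Acta2 was 8.40% and 11.4%, then 13.0% and 15.8%. Per 100 normalized counts of the 12 endothelial markers, the contractile sum was 0.442 and 0.726 for control and 2.90 and 8.90 for tamoxifen, since the endothelial sum was so much lower there.

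**Figure D4:**
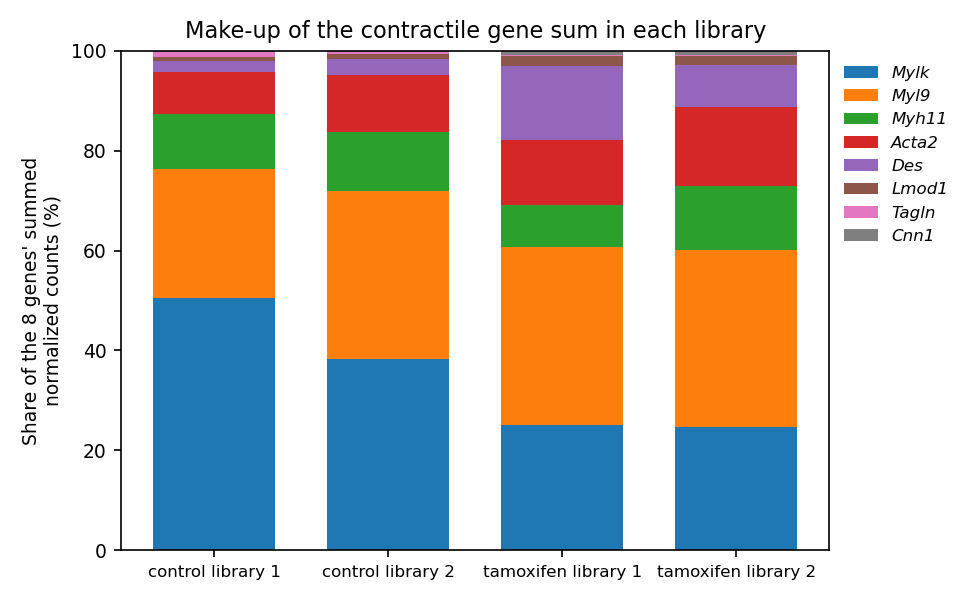
Share (y axis, percent) of each contractile gene in the summed normalized counts of the 8 genes, with 1 bar for each library. Mylk takes 50.6% and 38.3% of the control bars and 25.1% and 24.7% of the tamoxifen bars, while Des takes 2.32% and 3.09% and then 15.0% and 8.45%.

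Likeness between genes was measured as the Euclidean distance between log2 profiles over the 4 libraries, each centred on its own mean. Among the contractile genes Acta2 and Myl9 were closest, at a distance of 0.35, followed by Acta2 and Lmod1 (0.62) and Myh11 and Myl9 (0.63). Tagln and Des were farthest apart, at 3.85. The nearest gene outside the set was Adap2 for Acta2 (0.11), Syp for Myl9 (0.09), Scg5 for Myh11 (0.17), Gm13889 for Lmod1 (0.06), Fgf12 for Cnn1 (0.11), Cd180 for Des (0.10), Pmaip1 for Tagln (0.06) and Bmyc for Mylk (0.08). The 20 nearest of 13663 genes held 3 pericyte markers for Acta2 (Pdgfrb, Cox4i2 and Kcnj8) and 2 each for Myh11, Myl9 and Lmod1. They held no pericyte marker for Tagln, Cnn1, Des and Mylk. Other listed genes among the 20 nearest were Casq2 for Acta2, the neuron marker Snap25 for Myh11, Gucy1b1 for Myl9, Kcnmb1 for Lmod1 and Nexn for Des. A profile of 4 values shared by all genes makes close neighbours common, and 33 (Myh11) to 732 (Mylk) genes lay within 0.5 of a contractile gene, with 70 for Acta2, 78 for Myl9 and 89 for Lmod1.

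Other genes of the smooth muscle cell showed no common direction. The counts of this list and of each list below stand beside 28.6% called higher and 16% called lower over all genes tested. Of 18 further thin filament and cytoskeletal genes, 7 were called higher, 6 lower and 5 neither, with a median log2 fold change of -0.23 that was 0.24 both at equal totals and after quantile normalization. The higher ones were Cald1 (caldesmon, 1.33), Tpm2 (β-tropomyosin, 3.27), Itga8 (an integrin chain of smooth muscle, 1.11), Nexn (the actin-binding nexilin, 2.07), Ldb3 (a Z-disc protein, 3.76), Pdlim3 (a binding partner of α-actinin, 2.27) and Actg2, the γ-actin of visceral smooth muscle. Actg2 had 1 and 2 reads in controls and 19 and 58 after tamoxifen. The lower ones included Synm (synemin, -2.46), Smtn (smoothelin, -2.14), Hspb1 (a small heat shock protein, -1.93), Synpo2 (an actin-bundling protein, -3.34) and Pdlim7 (-1.02). No called gene of this list changed sign when the libraries were rescaled to equal totals or quantile normalized, but 5 genes that were not called did, among them Flna (filamin A, -0.03) and Tpm1 (α-tropomyosin, -0.35). Leaving out tamoxifen library 1 turned the 13 calls into 8, leaving out tamoxifen library 2 turned them into 7, and quantile normalization gave 4 higher and 5 lower.

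The phosphorylation of the light chain depends on a further set. Of its 12 genes, for the myosin phosphatase, the enzymes that act on it and the light chains, 1 was called higher and 4 lower (median -0.75). Ppp1r14a (CPI-17), a smooth muscle inhibitor of the myosin phosphatase, was the higher one, from 74.0 and 140.2 to 283 and 272 normalized counts (log2 fold change 1.44, limma with BH adjustment, adjusted p = 0.0151). Myl6 (the essential light chain, -1.73), Arhgef12 (a guanine nucleotide exchange factor, -1.73) and Rock2 (a kinase that inhibits the myosin phosphatase, -1.02) were among the lower ones. At equal totals 1 was called higher and 2 lower (median -0.28), and after quantile normalization 0 higher and 1 lower (median -0.36). The 5 calls became 3 without control library 1 and 3 without tamoxifen library 2.

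Of 11 regulators around SRF, 1 was called higher and 4 lower (median -0.70). At equal totals and after quantile normalization 2 were called higher and 3 lower, with medians of -0.23 and -0.62, and without tamoxifen library 2 the 5 calls became 3. Gata6, a factor of smooth muscle and of other mesodermal and endodermal cells, rose from 42.5 and 18.8 to 914 and 764 normalized counts. Mrtfb (a myocardin-related coactivator, -2.68), Csrp2 (-1.59), Mef2c (-1.45) and Klf4 (a repressor of contractile genes that endothelial cells also make, -1.49) were lower. Srf itself had 3108 and 2815 normalized counts for control and 2096 and 1581 for tamoxifen, a log2 fold change of -0.70 under the fold limit. Myocd, the gene of myocardin, was near the limit of detection with 6 and 18 reads in controls and 27 and 44 after tamoxifen (log2 fold change 1.09, limma with BH adjustment, adjusted p = 0.182).

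Among 14 tested genes of the smooth muscle membrane, calcium handling and cyclic GMP response, 4 were called higher and 1 lower, with a median of 0.85. Over all genes tested 28.6% were called higher and 16% lower, so the share called higher was close to the background. Ednra (the endothelin A receptor, 1.54), Cacna1c (the L-type calcium channel, 1.89), Gucy1a1 (soluble guanylate cyclase, 1.31) and Kcnma1 (a calcium-activated potassium channel, 2.05) were higher, and Pln (phospholamban, -1.81) was lower. Atp2a2 (the calcium pump SERCA2, 0.38), Itpr1 (a calcium release channel, -0.99) and Gucy1b1 (0.60) were not called. The count depended on the scaling of the libraries, with 8 higher and 0 lower after rescaling to equal totals, and 2 higher and 3 lower after quantile normalization. Without 1 of the libraries the count of genes called in this list ran from 0 without tamoxifen library 2 and 1 without tamoxifen library 1 to 10 without control library 2. Adra1d was too low to be tested.

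**Figure D5:**
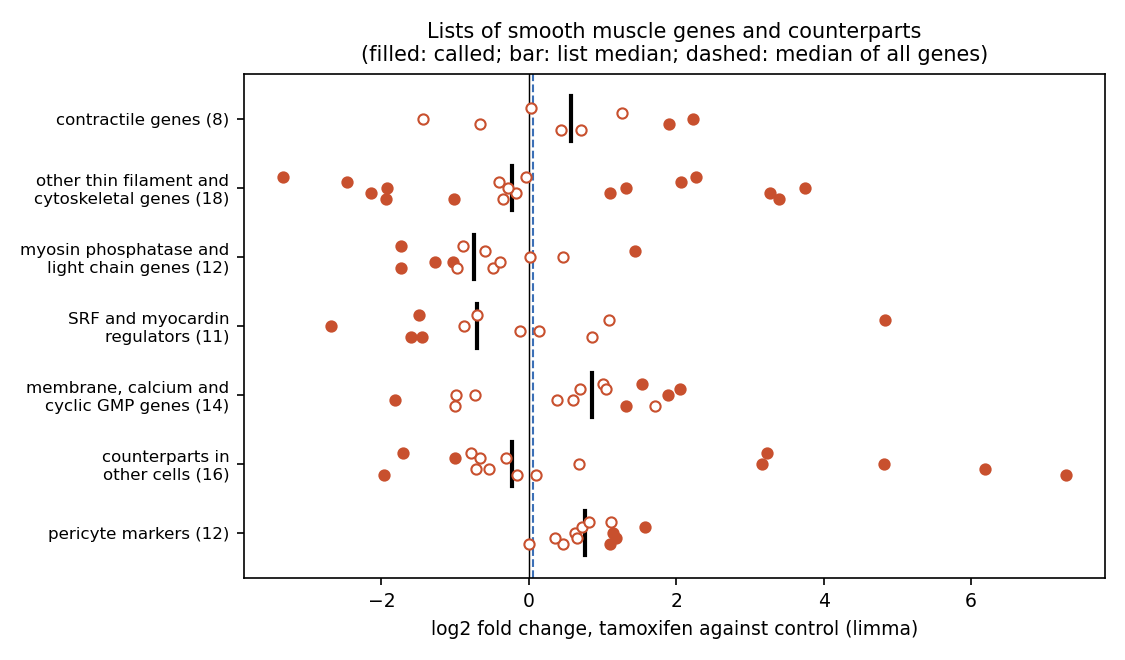
Log2 fold changes (x axis) of the genes tested in each list, with filled points for called genes, black bars for the list medians and a dashed line for the median of all genes tested. The contractile genes and pericyte markers have medians of 0.57 and 0.77, and the lists of phosphatase and light chain genes and of SRF regulators have medians of -0.75 and -0.70.

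Each contractile gene has counterparts in nonmuscle cells or in striated muscle, and these did not move as 1 group. Of 16 tested counterparts, 5 were called higher and 3 lower, and these 8 calls became 4 without tamoxifen library 2. Acta1, the actin of skeletal muscle, went from 9.59 and 2.50 to 1091 and 825 normalized counts, and Mylk3, the kinase of heart muscle, from 8.22 and 5.01 to 635 and 463. Actc1, the actin of heart muscle, had no more than 1 read in each control library and 56.4 and 30.2 normalized counts in the tamoxifen libraries. Tagln3 (3.24) and Myh14 (3.17), which neurons express, were also higher on the log2 scale. The nonmuscle light chain genes Myl12a (-1.70) and Myl12b (-1.97) were lower, as was the nonmuscle heavy chain Myh9 (-1.003), whose sign turned with quantile normalization (0.28). The cytoskeletal actin Actb (-0.53) and Vim, the gene of vimentin (0.10), were not called. Actb had 133754 and 136092 normalized counts for control and 104896 and 82917 for tamoxifen, and its sign turned with quantile normalization (0.75).

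Desmin, leiomodin and calponin can also be made by cells other than arteriolar smooth muscle. Markers of several other cell types moved with the groups, whether or not those cells make these proteins. Skeletal muscle markers were called higher for 8 of 9 tested, and their sum went from 712 and 962 to 4310 and 3365 normalized counts. Of that control sum, 685 and 942 came from Mylpf, the marker that was not called. Their lineage factors Myod1 and Myog had no read in either control library and at most 21.6 normalized counts in a tamoxifen library. Heart muscle markers were called higher for 4 of 5 tested, with sums of 203 and 196.5 in controls and 662 and 779 after tamoxifen. Tnni3, which was not called, made up 179 and 175 of the control sums, and quantile normalization gave 3 higher and 1 lower. Fibroblast markers were called higher for 10 of 10, with sums of 2561 and 3640 against 77184 and 66392, and Dpt had no read in either control library. Leukocyte markers were called higher for 6 of 8, among them Ptprc, the gene of CD45, by which cells were gated out. Ptprc had 50.7 and 83.9 normalized counts for control and 1423 and 1119 for tamoxifen. Astrocyte markers were called higher for 6 of 6 and neuron markers for 4 of 6. The part of these cells in the rise of Des and Cnn1 was not tested.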

How the data were processed

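RNA-Seq libraries of sorted brain cells from 2 control and 2 tamoxifen groups of pooled mice were compared. Per the labels and methods, STAR 2.7.10a was the aligner, GRCm39 the genome and DESeq2 1.36.0 the tool for normalization, after genes with low counts were left out. The annotation release and the strand setting are not given in the sources used here. What the authors deposited is a gene-level signal: reads over a gene divided by a factor particular to the library. In every library 100% of values were whole multiples (within 0.01) of the value of 1 read, so reads were recovered. A count of 3 reads was taken as the floor, and such limits cover counting error only.

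The 20485 genes whose mean reached 10 normalized counts entered limma 3.58.1 (R 4.3.3; lmFit, then eBayes with trend) as log2(normalized count + 1), and p-values were BH-adjusted over all of them. As a check of the code, the fit was first run on simulated data with the same fixed dispersion for all genes. That dispersion was not estimated from these libraries, so the check does not measure how reliable the calls are. The following were tried instead: edgeR 4.0.16 or DESeq2 1.42.0 on the recovered reads, a replicate block, quantile normalization or equal totals, eBayes without trend, a minimum mean of 100 or none, a pseudocount of 0.5 or 5, 3 of the 4 libraries, and calls without the fold limit. Gene locations, merged exon lengths and exon overlaps came from GENCODE M39 on GRCm39, in which 24451 genes matched by symbol. Promoters came from RefSeq on GRCm38.p6, with 6 of the 8 genes matched, and their coordinates were used for nothing else.

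The genes and lists were chosen with earlier results of these data known. Named are all 8 contractile genes, from each further smooth muscle list the 3 genes of highest mean and those called, the gene nearest to each contractile gene among those with a mean of 100 or more, and Mgp, Pecam1 and Ptprc. Up to 3 genes of highest mean could be named from each marker list, which are otherwise given by counts and sums; other genes were named after their values were seen. A few genes of these lists are counted in their list but not reported by name here.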

Additional observations from a re-analysis of the deposited data

How the results depend on the processing

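Over all genes tested, limma called 9151 genes (5867 higher, 3284 lower). The count was 5934 with the filter at a mean of 100 normalized counts and 4147 to 9700 with 1 library left out, the lowest without tamoxifen library 2, and a lone library is then assumed to vary like the others. Rescaling to equal totals moved the median log2 fold change of all genes from 0.05 to 0.52 and gave 7206 higher and 1838 lower calls, and quantile normalization moved it to -0.23 and gave 4615 and 5509. edgeR called 9241 genes and DESeq2 8740. Of the contractile genes, 2 were called. With the filter at a mean of 100, where Tagln, Cnn1 and Lmod1 are not tested, 1 was called (Des), and with 1 library left out 0 to 4, the 4 being Acta2, Cnn1, Des and Lmod1 without control library 2. The remaining alternatives called 2 or 3. Myh11 had -0.42 with quantile normalization and -0.61 to 0.66 with 1 library left out, and Myl9 had -0.11 to 0.98 with 1 library left out; the cause was not tested. The replicate numbers pair nothing that the labels name, and the correlation of deviations of same-numbered libraries across genes was 0.03. With the replicate block 9525 genes and 3 contractile genes (Cnn1, Des and Lmod1) were called. Myocd, Cnn1 and Tagln rest on few reads, which limits their precision.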
